A study of Mus musculus with 26 samples.

Results

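The genes described here are the abundant protein-coding genes of mouse testis that still carry a provisional name. They are the 150 genes with the highest wild-type mean among the 1429 protein-coding genes of chromosomes 1 to 19 whose symbol ends in Rik or is Gm with a number, out of 51124 genes in the table. They were chosen by the mean of both wild-type libraries, and 116 have a Rik name and 34 a Gm name. In the study the endogenous *Ythdc2* gene, which encodes a meiotic RNA helicase, was given a 3′ UTR with 10 target sites for piR-A, an abundant piRNA of pachytene spermatocytes. Total RNA of adult testes was sequenced from WT mice (libraries N1 and N2), from 10xPerf mice whose sites pair fully with piR-A (N3 and N4), and from 10xBulge mice whose sites have mismatches to piRNA positions 10 and 11 (N5 and N6). By the labels each library came from a different mouse. According to the paper the knock-in lines were kept as homozygotes and were made by CRISPR/Cas9 in embryos of the B6D2F1/J hybrid. Both lines thus carry an altered 3′ UTR at the same gene. Whole testes were used and no cell type was sorted. The strain composition of each sequenced animal was not given in the sources used here.

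A Rik symbol names a cDNA clone of the RIKEN full-length collection and a Gm symbol names a gene model, and both stand in until a gene receives a functional name. The testis has many such genes because late male germ cells transcribe a large set of genes that few other tissues use. Spermatogonia divide and enter meiosis as spermatocytes, and the haploid products, the spermatids, then build the acrosome, the flagellum and the compacted nucleus of sperm. Genes active in these last steps are often silent elsewhere, whereas housekeeping genes are transcribed in many cell types.

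The values are normalized read counts per gene, in which 1 read was worth 0.911 to 1.21 units, for roughly 41100000 to 61600000 reads per library. A value under about 3 units is therefore no more than 3 reads. They grow with transcript length, so the ranking of members, which used them as they are, is no order of transcript number, and levels of different genes can be compared only per kilobase. Markers of the labelled tissue were present in WT and 10xPerf testes. Of 14 spermatid markers all were called lower in 10xBulge than in 10xPerf (limma, adjusted p under 0.1 over all genes). Their summed value was 632000 to 873900 units in the 4 libraries of WT and 10xPerf, and 1550 to 3242 units in 10xBulge. Of the spermatocyte markers 2 of 12 were called lower. Of the somatic markers, 7 of 8 for Sertoli cells, 6 of 7 for Leydig cells and 5 of 6 for macrophages were called higher. For spermatogonia 4 of 8 were called higher. Over all genes tested 24.1% were called lower and 12.9% higher. The 10xBulge libraries differed in these sums, with 251800 in N5 and 114600 in N6 for Sertoli markers, and 312400 and 148700 for Leydig markers. In whole testis, fewer cells of a type and less RNA per cell cannot be told apart, and the part of these markers in the values below was not tested. *Ythdc2* itself was at 827 and 2412 in WT, 1334 and 1136 in 10xPerf and 1202 and 2458 in 10xBulge, so its 3 groups overlapped.

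In WT testis the 150 genes ranged from 1812 to 51025 normalized counts, with a median of 4676. Together they held 1.90% and 1.91% of all normalized counts in WT, 2.16% and 1.93% in 10xPerf, and 0.730% and 0.747% in 10xBulge. The share in 10xPerf therefore lay close to that of WT, and the share in both 10xBulge libraries lay below all 4 others. The 8 first in the ranking gave 26.8% and 20% of the members' sum in WT.

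The first member in the ranking was *1700003E16Rik* (ENSMUSG00000030030.6, chromosome 6), the mouse homolog of human C2orf81. It was at 65015 and 37035 in WT, 30106 and 35356 in 10xPerf, and 12803 and 6232 in 10xBulge. *4933411K16Rik* (ENSMUSG00000090369.4, chromosome 19), the homolog of C10orf62, was at 53722 and 32853 in WT and at 42197 and 47605 in 10xPerf, but at 180 and 66.3 in 10xBulge. *2610318N02Rik*, on chromosome 16, was at 50171 and 25064 in WT, 29030 and 31176 in 10xPerf, and 593 and 257 in 10xBulge. Both 10xBulge libraries lay below the other 4 for each of these genes, by a small factor for the first and by a very large one for the others.

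The next members followed the same division. *Gm5617*, the C11orf71 homolog, was at 40094 and 23097 in WT, 15655 and 18706 in 10xPerf, and 1988 and 1042 in 10xBulge. *Gm128*, which encodes the protein MENT, was at 24986 and 22363 in WT, 17634 and 19751 in 10xPerf, and 7515 and 5110 in 10xBulge. *1700028J19Rik* was at 25358 and 21906 in WT, 14626 and 15876 in 10xPerf, and 12426 and 9525 in 10xBulge. Among these, *Gm5617* was strongly reduced in 10xBulge while *Gm128* stood at 26.7% and *1700028J19Rik* at 46.4% of WT. *1700029F12Rik* was at 29603 and 28437 in WT, 20267 and 18839 in 10xPerf, and 11044 and 6129 in 10xBulge. *1700123L14Rik*, a relative of the nucleoporin gene *Nup50*, was at 15815 and 25665 in WT, 27061 and 28463 in 10xPerf, and 14736 and 6691 in 10xBulge. Per kilobase of the longest annotated transcript the order changed, with *Gm5617* first at 59501 normalized counts per kilobase in WT. The short *1700042G07Rik*, whose transcript is 385 bp long, reached 27051 per kilobase.

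**Figure D1:**
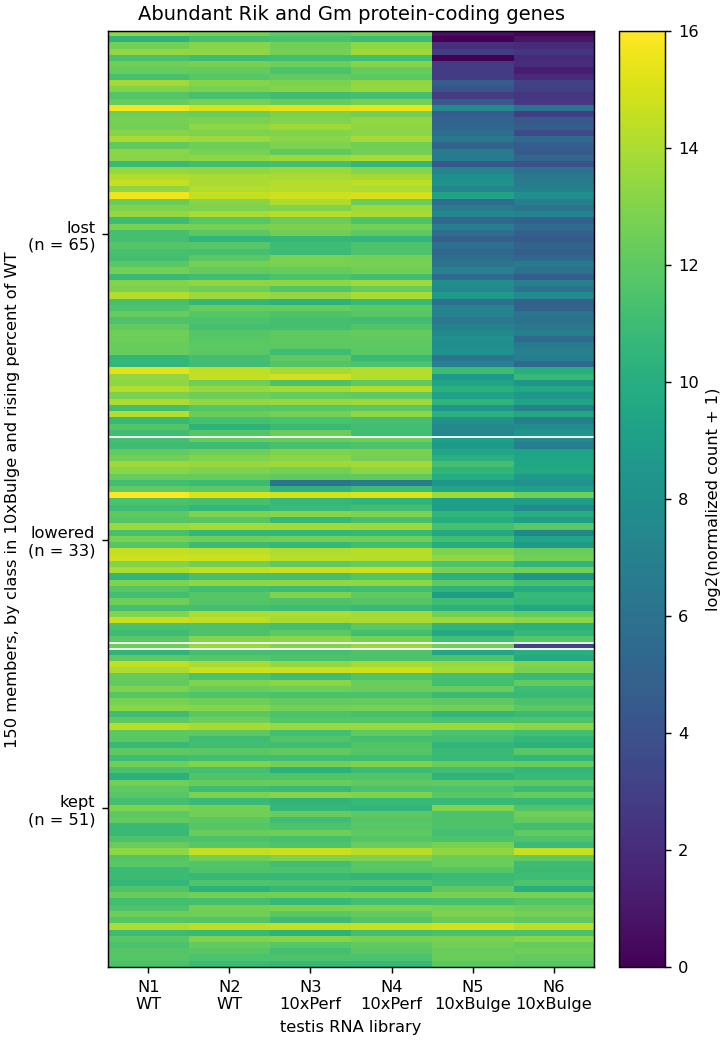
Each row is 1 of the 150 members and each column 1 testis library, and colour gives log2(normalized count + 1). Rows are grouped by class in 10xBulge (65 lost, 33 lowered, 51 kept, and 1 thin row with overlapping libraries), and within a class by rising percent of WT. The columns of WT and 10xPerf look alike in nearly all rows, while N5 and N6 darken through the upper rows.

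The comparison of the 10xBulge with the 10xPerf testes asked how the 2 lines differed in these genes. Its estimates of change used only libraries that played no part in choosing the members. The spread behind its p-values came from all 6 libraries, WT included. Besides the pairing of the sites, the lines differ in origin, as their plasmids were injected separately. The parts of pairing and origin in the values were not tested. Of the 150 genes, 96 (64.0%) were called lower in 10xBulge and 3 (2.0%) higher (limma on log2(value + 1), Benjamini-Hochberg adjusted p under 0.1). Over all 23782 genes tested, 24.1% were called lower and 12.9% higher. The other 735 tested Rik and Gm genes of the same chromosomes had 36.1% lower and 5.58% higher, and the 15778 protein-coding genes there with other names had 16.2% lower and 16.7% higher. The median change of the members was −2.67 on the log2 scale, against −0.07 over all genes tested. All 150 members passed the filter on low values through their WT libraries alone. These shares describe the list, whose genes were selected for abundance in WT, and were not tested against each other. Of the members called lower, 70 had a change of −3 or beyond on the log2 scale. The share of all genes past that limit was not computed, so nothing is read from this count. In 115 members both 10xBulge libraries lay below both 10xPerf libraries, and in 13 both lay above, against 35.3% and 30.7% of all genes tested.

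The 6 members with the smallest p among those lower in 10xBulge were nearly silent there. *Gm5901*, the C11orf42 homolog on chromosome 7, was at 9675 and 6685 in WT, at 4249 and 5921 in 10xPerf, and at 0.679 and 0.182 in 10xBulge. Its change was −11.80 ± 0.43 (SE) on the log2 scale (limma, Benjamini-Hochberg adjusted p = 2.98e-06), and it was −8.91 with a pseudocount of 10 and −13.39 with a pseudocount of 0.1, because its 10xBulge values were below 1 read. The call did not depend on either choice. *1700012A03Rik*, on chromosome 6, was at 6350 and 8916 in WT, 6050 and 10119 in 10xPerf, and 3.58 and 2.68 in 10xBulge. *1700042G07Rik*, on chromosome 4, encodes a protein of 90 residues that RefSeq names after an upstream reading frame of *PIK3R3*. It was at 10872 and 9958 in WT, 6482 and 13308 in 10xPerf, and 6.37 and 4.84 in 10xBulge.

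*1700015G11Rik*, which encodes the coiled-coil protein CCDC179, was at 5866 and 6744 in WT, 5753 and 8400 in 10xPerf, and 6.05 and 3.21 in 10xBulge. *4931429L15Rik* was at 2646 and 3666 in WT, 4581 and 4061 in 10xPerf, and 6.07 and 2.91 in 10xBulge. *Gm9999* kept somewhat more, with 6788 and 7390 in WT, 8486 and 10678 in 10xPerf, and 31.1 and 20.8 in 10xBulge. For these 6 genes both 10xBulge libraries lay below the other 4, and the fitted changes ran from −8.49 to −11.80 on the log2 scale.

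Of the first 8 in the ranking, *4933411K16Rik* fell by 8.67 ± 0.53 (SE) on the log2 scale (limma, Benjamini-Hochberg adjusted p = 6.01e-06). *1700003E16Rik* changed by −1.87 ± 0.50 (limma, Benjamini-Hochberg adjusted p = 0.0230). *Gm128* changed by −1.59 ± 0.41 (limma, Benjamini-Hochberg adjusted p = 0.0183). *1700028J19Rik* was not called, with a change of −0.49 and a 95% interval from −1.39 to 0.41 (limma, Benjamini-Hochberg adjusted p = 0.398). The calls of *1700003E16Rik* and *Gm128* were lost when either 10xPerf library was left out, with adjusted p from 0.119 to 0.158 (limma), whereas that of *4933411K16Rik* was kept. The calls of *1700029F12Rik* and *1700123L14Rik* were lost without N3, without N4 or without N6.

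Only 3 members were called higher in 10xBulge. *2410002F23Rik*, the C19orf48 homolog on chromosome 7, was at 2746 and 1882 in WT, 1666 and 1620 in 10xPerf, and 3975 and 3655 in 10xBulge, so that both 10xBulge libraries exceeded all others. Its change was 1.21 ± 0.39 (SE) on the log2 scale (limma, Benjamini-Hochberg adjusted p = 0.0439). *Gm17359* and *Gm13306* were also higher in 10xBulge than in 10xPerf, by 1.75 ± 0.49 and 1.81 ± 0.42, but neither exceeded WT in the mean, and their 10xPerf values are described with that line below. The number called higher was sensitive to single libraries, with 0 without N3, 1 without N4 and 1 without N5, and with 8 when library totals were set equal. *Gm17359* and *2410002F23Rik* were not called without N3, without N4 or without N5, and *Gm13306* was not called without N3.

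**Figure D2:**
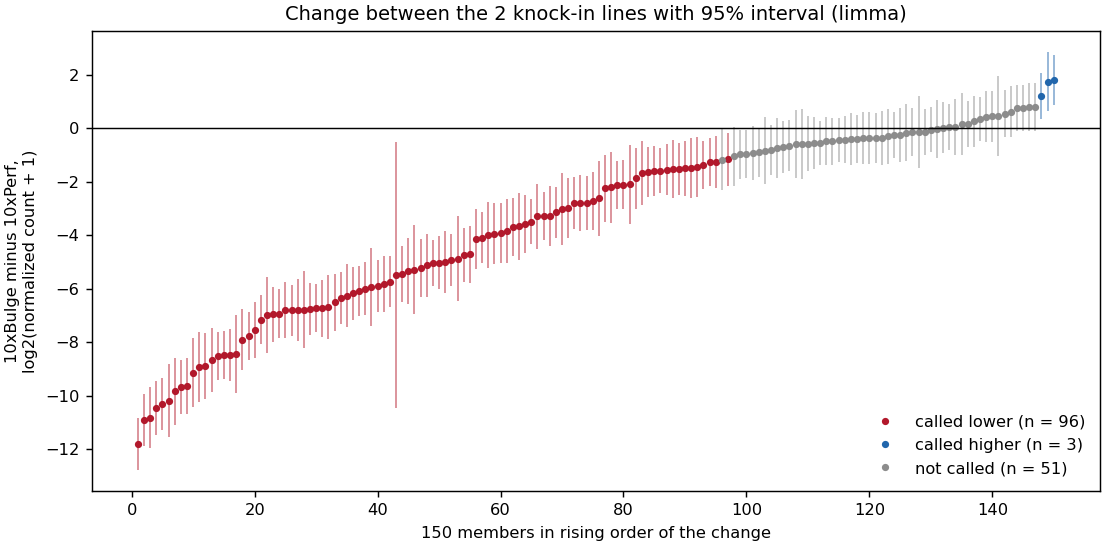
Points give each member's fitted difference between 10xBulge and 10xPerf on the log2(normalized count + 1) scale, in rising order, with its 95% interval as a line. The 96 members called lower reach −11.80, the 3 called higher stay under 2, and the isolated wide interval belongs to *Gm10184*, whose 10xBulge libraries disagreed.

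For 51 members no difference between the knock-in lines was called. The 6 with the smallest estimate had 95% intervals that reached about 1 on the log2 scale in either direction, so that they do not show equal levels. *4933434E20Rik*, the C1orf43 homolog on chromosome 3, was the steadiest, with 2954 and 2907 in WT, 2602 and 3299 in 10xPerf, and 2773 and 2927 in 10xBulge. The change was −0.04 with an interval from −0.88 to 0.80. *2610507B11Rik*, which encodes the large protein KIAA0100, was at 16804 and 22124 in WT, 24569 and 26342 in 10xPerf, and 30802 and 21925 in 10xBulge. *1810013L24Rik*, the C16orf72 homolog, was at 4891 and 6169 in WT, 6319 and 6436 in 10xPerf, and 6674 and 6597 in 10xBulge. The other 3 were *Gm5134*, a relative of sodium and glucose cotransporters, *Gm14226* and *4930402H24Rik*, whose 10xBulge means were 76.1%, 143% and 75.5% of WT.

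The position of each member relative to WT was then described by class. WT levels chose the members, so all counts against WT are descriptions and none is a test of the members. A gene was called lost if its mean was under 10% of the WT mean and both libraries lay below both WT libraries, lowered at 10% to 50% under the same condition, kept at 50% to 200%, and raised at 200% or more with both libraries above. In 10xBulge 65 members (43.3%) were lost, 33 (22.0%) were lowered, 51 (34.0%) were kept and 0 were raised, and 1 member had overlapping libraries past these limits. Among all tested genes the shares were 12.5% lost, 13.8% lowered, 54.3% kept and 16.1% raised. In 10xPerf 144 members (96.0%) were kept, 3 were lowered, 1 was lost and 2 were raised, against 87.7% kept, 3.95% lowered, 0.673% lost and 5.51% raised of all tested genes. WT levels entered both the choice and these classes, and nothing is read from the shares. The limma fit called 95 members lower and 0 higher in 10xBulge against WT, where 23.0% and 11.4% of all genes were called. In 10xPerf against WT 1 was called lower and 0 higher, where 0.492% and 0.467% of all genes were called. At an unadjusted p under 0.05 in either direction the counts were 99 members (66.0%) in 10xBulge, against 38.5% of all genes, and 4 (2.67%) in 10xPerf, against 6.09%. These counts rest on the values that chose the members, and nothing is read from them.

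The median member stood at 96.3% of WT in 10xPerf, with quartiles at 76.4% and 129%, and at 18.8% of WT in 10xBulge, with quartiles at 1.68% and 63.2%. Over the 23677 tested genes with a WT mean above 0, the 10xBulge median was 100% of WT, with quartiles at 43.6% and 171%. In 10xBulge 25 members were under 1% of WT and 55 were under 5%. The shares of all genes under these limits were not computed. The members lost in 10xBulge had a median of 1.26% of WT there and of 99.2% of WT in 10xPerf. Summed over the lost members, the libraries held 578286 and 489778 normalized counts in WT, 518546 and 548351 in 10xPerf, and 14125 and 9546 in 10xBulge. The sums over the kept members, 257610 and 293615 in WT, 271303 and 278370 in 10xPerf, and 252233 and 221896 in 10xBulge, stayed close to each other. The limits of that class hold each member's 10xBulge mean to 50% to 200% of WT and set no bound in 10xPerf. The kept members made up 22.6% to 27.2% of the members' sum in the 4 libraries of WT and 10xPerf, but 69.0% and 74.7% in 10xBulge. The 10xBulge values defined the classes, so nothing is read from this rise.

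**Figure D3:**
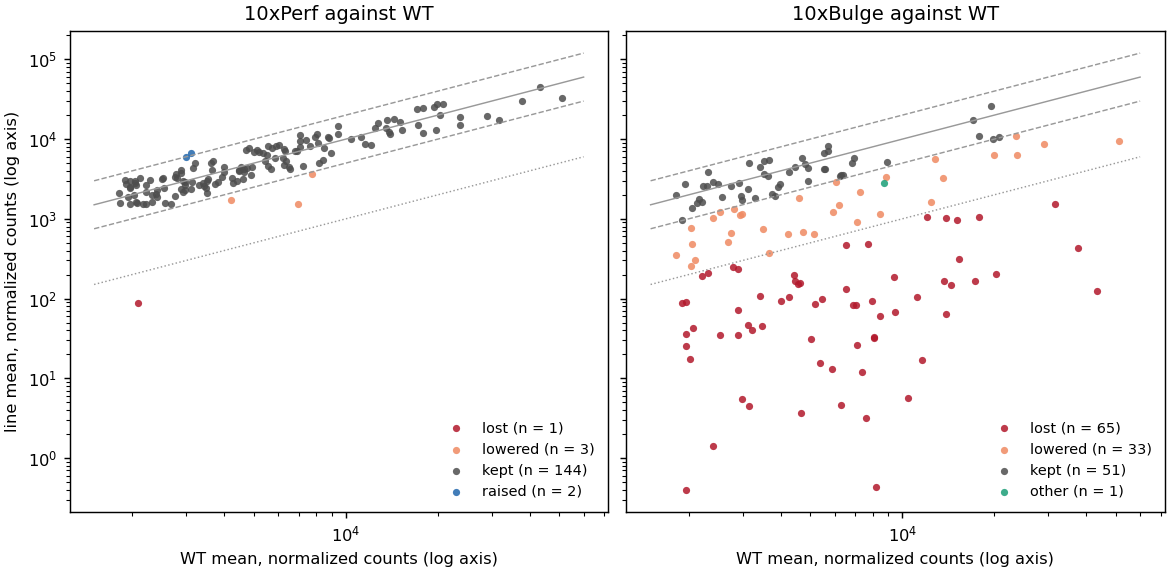
Each point is 1 member, with its WT mean on the horizontal log axis and its mean in 10xPerf (left) or 10xBulge (right) on the vertical log axis, both in normalized counts. The solid line marks equality, dashed lines 50% and 200% of WT and the dotted line 10%. In 10xPerf all but 6 members lie in the kept class, and in 10xBulge the 65 lost members spread from 9% of WT down to below 1 normalized count.

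Some lost members have a product with a descriptive RefSeq name or a known homolog. *1110017D15Rik*, which encodes the spermatid-specific manchette-related protein 1, was at 18326 and 11764 in WT, 14132 and 18978 in 10xPerf, and 1117 and 830 in 10xBulge. The manchette is the transient microtubule skirt that shapes the spermatid head. *1700013F07Rik*, the homolog of C1orf194, was at 7024 and 6811 in WT, 7424 and 6560 in 10xPerf, and 118 and 48.8 in 10xBulge. *4930404N11Rik*, the homolog of C19orf71, a protein of the tektin bundle inside axonemal microtubules, was at 2627 and 2446 in WT, 1976 and 2902 in 10xPerf, and 41.9 and 28.2 in 10xBulge. *1700019D03Rik*, which encodes a small membrane A-kinase anchor protein, was at 8059 and 7816 in WT, 8100 and 13047 in 10xPerf, and 111 and 74.7 in 10xBulge. In each of these 4 genes both 10xBulge libraries lay far below those of WT and 10xPerf. The 4 genes were chosen after their values were seen and stand for no group.

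Among the lost members 2 were listed at 0 in N5, which was not true of any member in another library. *1700016C15Rik*, the C1orf100 homolog on chromosome 1, was at 2725 and 2092 in WT, 2310 and 2257 in 10xPerf, and 0 and 2.85 in 10xBulge. *Gm30302*, whose product RefSeq places in the SPATA31 family of sperm proteins, was at 1380 and 2547 in WT, 2862 and 2057 in 10xPerf, and 0 and 0.792 in 10xBulge. These values are at or under 3 reads, as were both values of *Gm5901* and the N6 values of *1700012A03Rik* and *1700020A23Rik*. No member was listed at 0 in both libraries of a line.

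**Figure D4:**
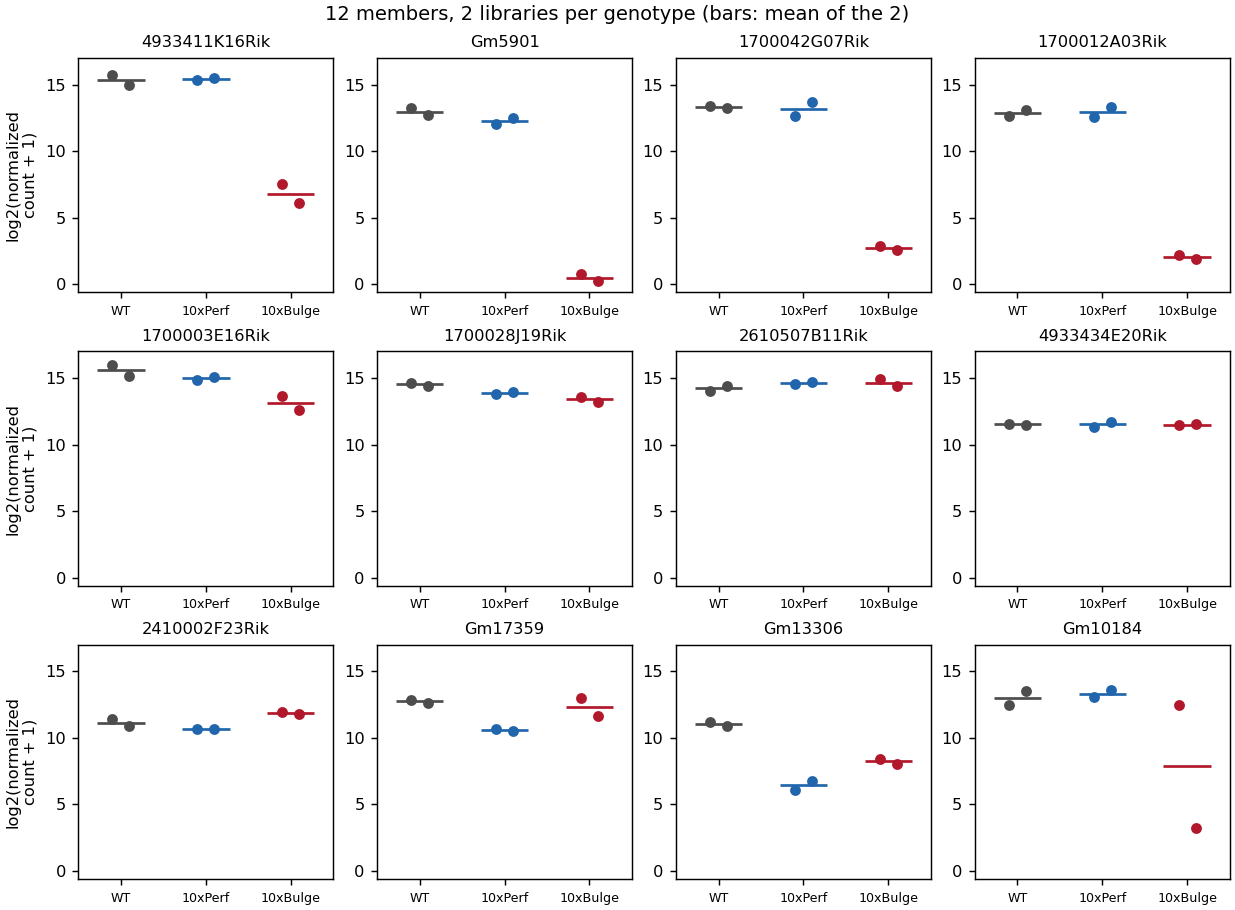
Panels show log2(normalized count + 1) in each library of 12 members as points, with a bar at the mean of the 2 libraries of each genotype. *4933411K16Rik*, *Gm5901*, *1700042G07Rik* and *1700012A03Rik* drop in both 10xBulge libraries. *2610507B11Rik* and *4933434E20Rik* have no called difference between the knock-in lines. *Gm13306* and *Gm17359* are lowest in 10xPerf, and the 10xBulge points of *Gm10184* lie far apart.

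Members kept in 10xBulge ranged from 50.2% to 165% of WT, and 19 of the 150 stood at or above the WT mean. *2700049A03Rik*, which encodes the centrosomal ciliogenesis protein TALPID3, was at 3684 and 7442 in WT, 8651 and 7539 in 10xPerf, and 3767 and 4746 in 10xBulge. *4932438A13Rik*, which encodes the very large protein KIAA1109, was at 10033 and 24103 in WT, 27405 and 20295 in 10xPerf, and 10280 and 24337 in 10xBulge. Both the WT and the 10xBulge libraries of this gene differed widely from each other. *4833439L19Rik*, the p33MONOX gene, was at 3497 and 2784 in WT, 2999 and 2877 in 10xPerf, and 5487 and 4556 in 10xBulge. *D030056L22Rik*, the C9orf40 homolog, was at 3375 and 3681 in WT, 2416 and 3907 in 10xPerf, and 5061 and 5701 in 10xBulge. In both of these genes the 10xBulge libraries exceeded the other 4, yet neither change against 10xPerf was called (limma, Benjamini-Hochberg adjusted p = 0.161 and 0.167). They too were picked after their values were seen. In the kept class 2 members were called lower in 10xBulge than in 10xPerf, *1700123L14Rik* and *2210408I21Rik*, whose 10xBulge means of 51.7% and 50.2% of WT were just inside the class limit. Both calls were lost without N3 or without N4.

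In 10xPerf the exceptions were few. *Gm13306*, on chromosome 4, encodes the chemokine ligand 27b, and it was at 2299 and 1890 in WT, 68.4 and 106 in 10xPerf, and 341 and 267 in 10xBulge. It was the member lost in 10xPerf, at 4.17% of WT. Its neighbour among the members, *Gm20878*, encodes a protein like chemokine ligand 27 and was at 4430 and 4009 in WT, 1337 and 2062 in 10xPerf, and 729 and 575 in 10xBulge. These chemokine genes have near-identical copies, so that reads can be shared or split. The table lists *Ccl27b* as having the same sequence as *Gm13306*, and *Gm21953* and *Gm21586*, listed at 0 in all 6 libraries, as having that of *Gm20878*. The protein of *Gm13306* was 99.3% identical to that of *Ccl27a*, which was at 8944 and 8697 in WT, 6477 and 9597 in 10xPerf, and 3141 and 1665 in 10xBulge. *Il11ra2*, also on chromosome 4 and no member, was added after the values were seen. It was at 237 and 131 in WT, listed at 0 in both 10xPerf libraries, and at 109 and 91.2 in 10xBulge. Whether copy number or strain plays a part in these values was not tested.

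*Gm17359*, on chromosome 3, is the homolog of C4orf45, and it was at 7540 and 6384 in WT, 1616 and 1436 in 10xPerf, and 8226 and 3208 in 10xBulge. It stood at 21.9% of WT in 10xPerf while its 10xBulge libraries spanned the WT range. *1700021F07Rik*, the C20orf85 homolog on chromosome 2, was at 9928 and 5563 in WT, 2934 and 4465 in 10xPerf, and 651 and 320 in 10xBulge, so that it was lowered in 10xPerf and lost in 10xBulge. On the high side, *4933402J07Rik*, the C16orf78 homolog, was at 2473 and 3756 in WT, 7130 and 6449 in 10xPerf, and 53.6 and 40.4 in 10xBulge. It was raised in 10xPerf, at 218% of WT, and lost in 10xBulge. *4932414N04Rik* was at 2401 and 3583 in WT, 7710 and 4310 in 10xPerf, and 488 and 1821 in 10xBulge. The call against 10xPerf was lost without N3, and that of *Gm20878* without N4. *1700012B07Rik* and *Gm20716* followed at 163% and 162% of WT in 10xPerf. Single libraries set how many members were raised in 10xPerf, from 0 without N1 to 16 without N2. The number lowered ranged from 2 to 7 over the libraries left out, with 7 without N4 and 6 without N2.

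Agreement between the libraries of a genotype was uneven. The median absolute difference within a genotype was 0.46 on the log2 scale in WT, 0.27 in 10xPerf and 0.68 in 10xBulge, and 121 of 150 members were higher in N5 than in N6. Among the members lost in 10xBulge 57 of 65 were higher in N5, with a median difference of 0.85, and among the kept members 34 of 51, with a median difference of 0.25. In WT 85 members were higher in N1 than in N2. The largest WT ratios of N1 to N2 were those of *5031439G07Rik*, at 18790 and 5351, *Gm20662*, at 3327 and 1299, and *2310022A10Rik*, at 3138 and 1313. *2610318N02Rik*, described above, came next, with N1 again the higher. At the other end *9930021J03Rik* was at 1816 and 5442, *0610010F05Rik* at 1197 and 3046, and *4932438A13Rik* and *4932415D10Rik* were likewise lower in N1. *4932415D10Rik*, whose transcript is 15111 bp long, was at 11071 and 24579 in WT, 30356 and 18975 in 10xPerf, and 384 and 1746 in 10xBulge, and went against the usual order of N5 and N6. Over the 149 members with a transcript in the reference, the ratio of N1 to N2 had a Spearman correlation of 0.645 with GC content and −0.364 with transcript length. For N5 to N6 the same values were 0.589 and −0.405, and for N3 to N4 −0.440 and 0.419. These describe genes within shared libraries, which are not independent, and their part in the comparisons was not tested.

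The largest disagreement was that of *Gm10184* on chromosome 17, the member with overlapping libraries, named because its class held no other gene. It was at 5592 and 11875 in WT, 8543 and 12631 in 10xPerf, and 5630 and 8.51 in 10xBulge. Over the aligned stretch the encoded protein was identical to that of the importin gene *Kpna2* on chromosome 11. *Kpna2* was at 4058 and 5439 in WT, 5972 and 6017 in 10xPerf, and 9026 and 13401 in 10xBulge. Reads of such copies can be split between them, so the value of *Gm10184* is uncertain. It was called lower in 10xBulge (limma, Benjamini-Hochberg adjusted p = 0.0948), with a change of −5.49 and an interval from −10.47 to −0.50. Without N6 the change was −0.88 and was not called (limma, adjusted p = 0.247), and without N5 it was −10.09. It was also not called when N1, N2, N3 or N4 was left out.

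A named protein of at least 30% identity was found for 25 of the 148 members with a translated coding sequence. Of these, 9 were at least 95% identical to it. Identities here and elsewhere in the text are those of the aligned stretch, which need not cover the whole protein. Members whose protein was identical over that stretch to that of a named gene included *Gm2000* (*Rpl35*, a ribosomal protein gene), *Gm10131* (*Erh*), *Gm20716* (*Dpm1*) and *Gm49336* (*Nupl1*). *Gm20716* and *Dpm1* are both on chromosome 2, and *Gm49336* and *Nupl1* both on chromosome 14. Whether these are separate copies or models of 1 locus was not examined. *Gm2000* was at 5181 and 3747 in WT, 3088 and 5166 in 10xPerf, and 6881 and 1929 in 10xBulge, and *Rpl35* in the same order at 4566, 5198, 3161, 3619, 6169 and 1520. Both genes were high in N5 and low in N6. In 10xBulge *Gm49336* stood at 123% of WT and *Nupl1* at 2.57%. *Gm10131* was at 141% and *Erh* at 175%, and *Gm20716* at 102% and *Dpm1* at 114%. Values of all these genes are uncertain, since reads can be split between genes that share sequence. More distant relatives divided otherwise. *1700009N14Rik*, 92.6% identical to the nuclear transport GTPase *Ran*, was at 24471 and 16060 in WT, 18491 and 21886 in 10xPerf, and 294 and 111 in 10xBulge, while *Ran* was at 20992 and 19798, 14796 and 26329, and 25168 and 25119. *4930544G11Rik*, 83.4% identical to the cytoskeletal GTPase *Rhoa*, was at 5611 and 8047 in WT, 6440 and 7624 in 10xPerf, and 5044 and 5018 in 10xBulge. *Rhoa* was at 3790 and 4019 in WT, 3312 and 4854 in 10xPerf, and 12036 and 9518 in 10xBulge. Whether reads were shared within these pairs was not tested. The *Ran* relative was thus lost and the *Rhoa* relative kept, although both are small GTPases and 30.6% identical to each other.

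The members formed 3 other protein families. On chromosome 14 *1700129C05Rik* and *Gm5142*, which are 51.1% identical, were both called lower in 10xBulge, with 1119 and 696 for the first and 578 and 374 for the other against WT means of 7095 and 6520. On chromosome 5 *1700018F24Rik* and *Gm4871*, 96.8% identical in protein so that reads can be shared, were at 39.5% and 38.5% of WT in 10xBulge and neither was called against 10xPerf. A more distant relative, *1700001J03Rik*, was at 5019 and 3811 in WT, 2095 and 3784 in 10xPerf, and 276 and 122 in 10xBulge, and was called lower. Of the KIAA0895 family, *4931428F04Rik* was at 5612 and 3487 in WT, 4238 and 4724 in 10xPerf, and 188 and 117 in 10xBulge. The related *9530077C05Rik*, 62.3% identical, was at 1881 and 3105 in WT, 2815 and 3594 in 10xPerf, and 3449 and 1948 in 10xBulge. One of this family was thus lost and the other kept.

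Clone names hold further information, since a RIKEN prefix marks the cDNA library of origin, and 1700 and another series of prefixes that begin with 49 belong to adult testis. The grouping was made after the values were seen. Of 55 members with prefix 1700, 31 were lost, 17 lowered and 7 kept in 10xBulge, with a median of 4.58% of WT. Of 30 with the other testis prefixes, 16 were lost, 5 lowered and 9 kept, with a median of 8.43%. The 31 Rik members from other libraries had 4 lost, 3 lowered and 24 kept, with a median of 74.1%. The 34 Gm members lay between, with 14 lost, 8 lowered and 11 kept and a median of 19.7%. In 10xPerf the medians of the 4 groups were 94.8%, 103%, 89.6% and 96.0% of WT. Against 10xPerf, 47 of 55, 21 of 30, 8 of 31 and 20 of 34 were called lower in 10xBulge, beside 24.1% of all genes tested, and the groups were not tested against each other.

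RefSeq gave 76 of the members a product named after a human open reading frame, a KIAA clone or a UPF family, 27 a descriptive name, 27 an uncharacterized name without a human symbol, and 20 none. Of the 27 whose product name holds no human symbol 15 were lost, 10 lowered and 2 kept in 10xBulge. Of the 76 named after a human frame, clone or family 31 were lost, 14 lowered and 31 kept. Of all tested genes 12.5% were lost, 13.8% lowered and 54.3% kept. The naming groups were not tested against each other. Lost members had short transcripts, with a median of 1304 bp and a range of 359 to 17665 bp, and so had lowered members, with a median of 1291 bp. The median of kept members was 2763 bp. Medians were 2645 bp over all tested genes, 1755 bp over the other Rik and Gm genes and 3338 bp over protein-coding genes with other names. Each length is that of the gene's longest annotated transcript, which need not be the one expressed. The median protein lengths of lost, lowered and kept members were 234, 267 and 297 residues. Cysteine content differed little, with medians of 1.75%, 2.33% and 1.88%, and lysine plus arginine made up 13.1%, 10.7% and 11.8%.

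**Figure D5:**
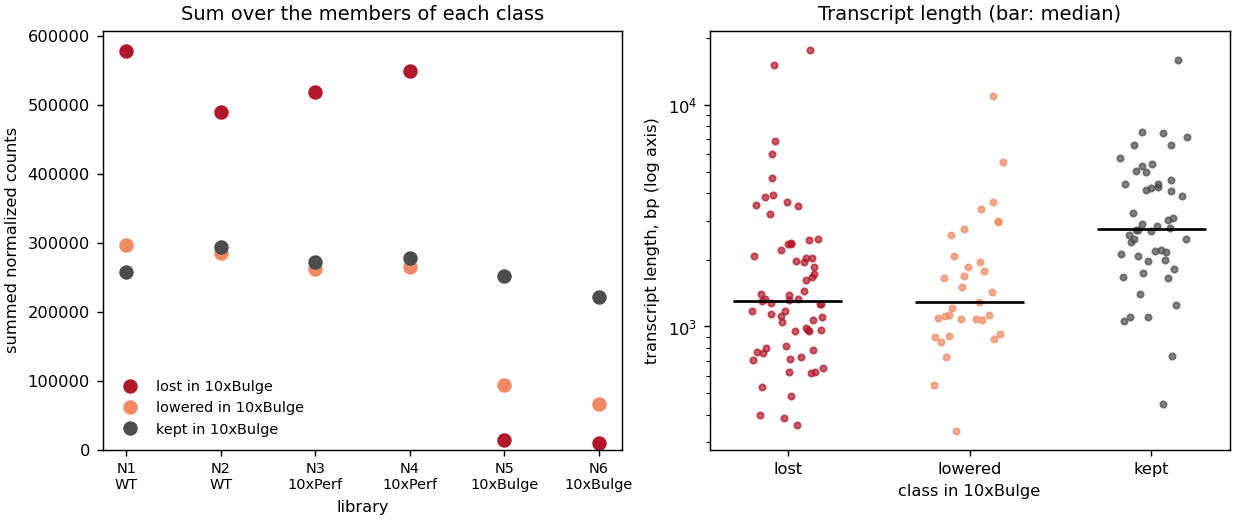
Left, summed normalized counts per library over the members lost, lowered or kept in 10xBulge, where the sum of the kept members stays between 221896 and 293615 and that of the lost members is 14125 in N5 and 9546 in N6. Right, transcript length of each member on a log axis by class, with a bar at the median (1304, 1291 and 2763 bp).

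Promoters were searched for sequences read by regulators of male germ cells, from 250 bases before to 50 after each RefSeq start on GRCm38.p6, on both strands. TGACGTCA is the cAMP response element bound by CREB and CREM proteins, and TGACGT is its core, contained in it. GGCAGTT is a sequence of MYB factors such as MYBL1, and GTTGCCA is part of that of RFX factors. Promoters were found for 120 members. TGACGT occurred in 10 of 37 kept members (27.0%), in 2 of 52 lost (3.85%) and in 2 of 31 lowered (6.45%), and in 10.8% of the 15925 tested genes with a promoter entry. It was in 5.01% of the other Rik and Gm genes with an entry and in 11.4% of the protein-coding genes with other names. TGACGTCA occurred in 2 kept members and 0 others, and in 2.88% of tested genes. GGCAGTT was in 5.77% of lost, 9.68% of lowered and 10.8% of kept members, and in 4.83% of tested genes and 9.55% of the other Rik and Gm genes. GTTGCCA was in 5.77%, 12.9% and 8.11%, and in 5.43% of tested genes and 16.9% of the other Rik and Gm genes. A match describes the letters and is not a shown binding site, and the differences were not tested. The matches below are those within 40 bases of the start site in kept members, with 1 strand shown of each palindrome, and both in lost members, with TGACGT in capitals and 10 bases of context on each side, 5′ to 3′ on the strand of the capitals.
*9530068E07Rik*, kept, chr11:52396404-52396429, plus strand: gacgcgtatcTGACGTcacctcgcag
*3830406C13Rik*, kept, chr14:12284151-12284176, plus strand: ggactctgacTGACGTcaggagcgta
*4932438A13Rik*, kept, chr3:36863097-36863122, plus strand: gctggcgcctTGACGTgatacgctgc
*1810055G02Rik*, kept, chr19:3708277-3708302, plus strand: cccgctttcgTGACGTctttccgggg
*9530077C05Rik*, kept, chr9:22411532-22411557, minus strand: cccgccacggTGACGTcgctgcaacc
*Gm20716*, kept, chr2:168230377-168230402, minus strand: ccgtgtcggaTGACGTaagtccgctt
*A430005L14Rik*, kept, chr4:153957208-153957233, plus strand: ccctgattggTGACGTggcgatgaca
*2510039O18Rik*, kept, chr4:147940870-147940895, plus strand: cggtggcgttTGACGTctaggaggca
*Gm5617*, lost, chr9:48495335-48495360, minus strand: ctttacgtcgTGACGTctgaacggga
*1700001O22Rik*, lost, chr2:30801749-30801774, plus strand: ggggcggctgTGACGTtgacatgagc

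The first of these windows belongs to *9530068E07Rik*, which encodes a keratinocyte-associated transmembrane protein and was at 5724 and 5677 in WT, 3777 and 4564 in 10xPerf, and 7715 and 6503 in 10xBulge. The next, *3830406C13Rik*, the C3orf14 homolog, was at 2113 and 3844 in WT, 2812 and 2576 in 10xPerf, and 1533 and 1949 in 10xBulge. Both hold the full palindrome, whose last letters stand in lower case after the capitals. The lost *1700001O22Rik*, the C9orf50 homolog, was at 18338 and 12283 in WT, 10682 and 15499 in 10xPerf, and 407 and 213 in 10xBulge, so that a TGACGT core near the start did not mark kept genes alone.

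The limit of 150 genes cut through a continuous range. Just inside it, *0610030E20Rik*, the C2orf68 homolog, was at 1974 and 1669 in WT, 1652 and 1502 in 10xPerf, and 1921 and 2108 in 10xBulge, and *1700067K01Rik* was at 2061 and 1563, 1940 and 2302, and 494 and 207. Just outside it, *1700109H08Rik* was at 1326 and 2269 in WT, 3250 and 2174 in 10xPerf, and 5.29 and 19.2 in 10xBulge, and *1700125H20Rik* was at 1653 and 1936, 1290 and 1629, and 660 and 237. Genes on both sides of the limit were thus kept, lowered or lost in 10xBulge.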

How the data were processed

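RNA-seq of adult testes was analysed in 6 libraries, 2 per genotype, grouped by their labels. The 20 MILI and MIWI small RNA libraries were not analysed here. The authors quantified reads with salmon and its GC correction on GRCm39 with Ensembl 104, and deposited the DESeq2-normalized read counts as a signal. These are not whole reads, so no count test was run. The deposited log2 fold changes and adjusted p-values of each line against WT are the authors' own comparisons and were not used.

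All 23782 genes that reached 10 in 2 or more libraries entered 1 limma fit of log2(value + 1) (version 3.58.1, R 4.3.3) with a mean-variance trend, 1 term per genotype and Benjamini-Hochberg adjustment over all genes at 0.1. The 3 genotypes shared the estimate of spread. Each label names its own mouse, and p-values measure only the spread between these libraries. The fit was also run on simulated normal log2 values with few changed genes. In these data many genes were called and some values were under 1 read, so that run does not vouch for the calls. The worth of 1 read was taken as the most frequent value under 3. Only WT chose the members, so 10xBulge against 10xPerf is the tested comparison and the comparisons with WT, which share libraries with each other, are descriptions. Members, classes and lists were chosen with earlier results of these data known.

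Named members are the 8 most abundant, the 6 with the smallest p in each direction without overlap, the 6 uncalled with the smallest change, the 4 lowest and 4 highest in 10xPerf relative to WT, up to 6 listed at 0 in both libraries of a line, those beside the limit, protein families, and the 4 highest and 4 lowest ratios of N1 to N2. Other genes were named outside these rules with their values known, and only some are marked so where they appear. Transcripts and proteins came from GENCODE M21 (GRCm38), families from blastp (BLAST+ 2.17.0), promoters and product names from RefSeq. Transcript or protein lengths were found for 149 and 148 members, promoters for 120. Alternatives were library totals, the upper quartile, pseudocounts of 0.1 and 10, other filters, a fit of both knock-in lines alone, a threshold of 0.05, limits of 5% and 20% for lost, other rankings, and leaving out each library.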

Additional observations from a re-analysis of the deposited data

How the results depend on the processing

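Of 202 recomputed counts, 169 stayed within 1.5 times the reported value. Members called lower in 10xBulge against 10xPerf numbered 79 to 98 over all alternatives, and 90 to 98 apart from those without N3 (79), without N4 (80), with at least 10 in every library (83, for 136 members fitted) and with members ranked by all 6 libraries (88). Members called higher against 10xPerf numbered 8 with library totals, 5 with the upper quartile, 1 with members ranked by N2, and 0 to 4 with each library left out. Against WT, members called higher in 10xBulge numbered 6 with library totals, 1 ranked by N2 and 1 ranked by all 6 libraries. Those called lower in 10xPerf numbered 2 with the upper quartile, with a pseudocount of 10 and with at least 10 in every library, 0 ranked by N2 or by all 6 libraries, and 0 to 2 with each library left out. Library totals moved the median change over all genes from −0.07 to 0.17.

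Of the classes, raised members in 10xBulge numbered 3 with library totals, 1 ranked by N2 and 1 ranked by all 6 libraries, and 0 to 2 with each library left out. Lowered members in 10xBulge numbered 21 with a limit of 20%. In 10xPerf, raised members numbered 1 with the upper quartile and 0 to 16 with each library left out, lowered members 2 to 7, and lost members 0 when ranked by N2 or by all 6 libraries. The rankings shared 143 (N1), 139 (N2) and 139 (all 6 libraries) members with the reported one.

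The changes that turned sign were all uncalled in the reported fit. With library totals *Gm5134*, *4933434E20Rik* and *4930402H24Rik* were at 0.25, 0.21 and 0.12 on the log2 scale, and with the upper quartile the first pair were at 0.055 and 0.019. With each library left out the ranges were −0.34 to 0.34 for *Gm5134*, −0.21 to 0.28 for *2610507B11Rik*, −0.21 to 0.13 for *4933434E20Rik*, −0.13 to 0.26 for *Gm14226*, −0.50 to 1.44 for *2310022A10Rik* (called without N6), −1.20 to 0.045 for *4932438A13Rik* and −0.71 to 0.12 for *9530077C05Rik*. The cause of these shifts was not tested. Count tools were not run because the values are normalized. No paired analysis was possible because the library numbers are not shared between genotypes. With 2 libraries per genotype the intervals of uncalled members are wide, and values under 3 reads set no precise fold.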
